A study of Danio rerio with 10 samples.

Results

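The zebrafish hatching gland is a transient band of secretory cells on the front of the yolk sac whose enzymes soften the egg envelope so that the embryo can leave it. Here 8 gene names tied to that gland were followed in whole embryos exposed to thallium: the hatching enzymes he1.1, he1.2, he1.3 and he2, the cathepsin ctslb, the transcription factor klf17, the tetraspanin cd63 and the prolactin receptor prlra. The names were chosen with earlier results of these data known, and were matched by symbol to the Ensembl genes in the count files, without regard to case. Of the 8 names, 7 had a row among the 32057 genes shared by all libraries. The name he2 had none of its own: the zebrafish RefSeq gene table (assembly GRCz12tu) gives he2 as another name of he1.3, so both names stand for 1 row here. The symbol table names cd63 as CD63 and prlra as PRLR, without the paralog letter, and lists prlrb apart.

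As background, the gland arises from the first mesendoderm to involute, the polster, and its cells move over the yolk as the body forms. Klf17 is required in the polster for gland cells to form. The cells then fill with granules of astacin-type metalloproteases, the hatching enzymes, and release them near 48 hours post fertilisation (hpf), after which the gland is lost. Cathepsin L family members are strongly expressed in the gland, Cd63 is a membrane protein of lysosomes and secretory granules, and prolactin has been tied to hatching enzyme release in fish.

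RNA was sequenced from wild-type embryos kept from 6 to 48 hpf in thallium nitrate (TlNO3), a salt of a toxic heavy metal, at 0 ppb (5 libraries), 200 ppb (3 libraries) or 800 ppb (2 libraries). The tissue is the whole embryo, so lower RNA from a gland gene cannot be told apart between fewer gland cells and less RNA per cell, and embryos out of the egg cannot be told apart from those within it. A hospital sequencing core prepared replicate 1 of 0 ppb and of 200 ppb, and a commercial provider the other 8 libraries. Nothing in the labels ties a replicate to a clutch of its own, so each p-value below reflects how far apart these libraries lie, a spread that may be technical. Depth ran from 12.1 to 48.3 megareads per library.

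Libraries were also sorted into 4 clusters. The provider's libraries were divided into 3, a number set beforehand, by how the 2 deposited count sets differed in each library. The hospital core's libraries, whose 2 count sets are the same, were made the fourth from their site label. Replicates 1, 2 and 3 of 0 and 200 ppb formed a pair each, and replicates 4 and 5 of 0 ppb went with both 800 ppb libraries. Levels from the count files are given in CPM, the reads of a gene divided by the library's total in megareads. These totals were adjusted by the trimmed mean of M values (TMM). CPM is not corrected for gene length, so levels are compared between libraries and never between genes.

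None of the hatching gland genes passed the test at either dose. At 200 ppb 0 of the 6 tested genes were called by edgeR's quasi-likelihood test at a Benjamini-Hochberg adjusted p under 0.05, beside 0.0% of all 20867 genes tested. At 800 ppb 0 of 6 were called, beside 0.0431% of all genes, which is 9 genes. That count over all genes was 0 without 0 ppb replicate 4, 0 ppb replicate 5 or 800 ppb replicate 1. DESeq2 and limma-voom also called 0 of the 6 at either dose. At an unadjusted p under 0.05 in edgeR's test, 1 of the 6, he1.2, stood out at 200 ppb beside 0.575% of all genes, and 0 of the 6 at 800 ppb beside 4.76% of all genes. The seventh gene, he1.3, had too few reads to be tested.

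Levels varied widely within a dose: among the 5 unexposed libraries the highest level was 1.54 to 4.80 times the lowest for the 6 tested genes. The 4.80 was that of cd63, with 29.6 CPM in the hospital core's library and 117 to 142 CPM in the provider's 4. Ctslb likewise had 5.61 CPM in the hospital core's library and 17.2 to 26.5 CPM in the provider's. The fitted log2 fold changes of the 6 genes had a median of −0.25 at 200 ppb, where the median over all genes was −0.0034. At that dose 0 of 6 lay above 0, beside 49.1% of all genes. At 800 ppb the median was 0.20, where that over all genes was −0.013, and 5 of 6 lay above 0, beside 48.0%. With the library cluster as a term the medians were −0.16 and 0.08, with 0 and 4 of 6 above 0. Both comparisons use the same 0 ppb libraries, so the opposite signs are not independent. Mean CPM came in the order 200 ppb, 0 ppb, 800 ppb for all 6 genes, but the groups overlapped in each, and the share of hospital core libraries differs between the 3 groups.

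**Figure D1:**
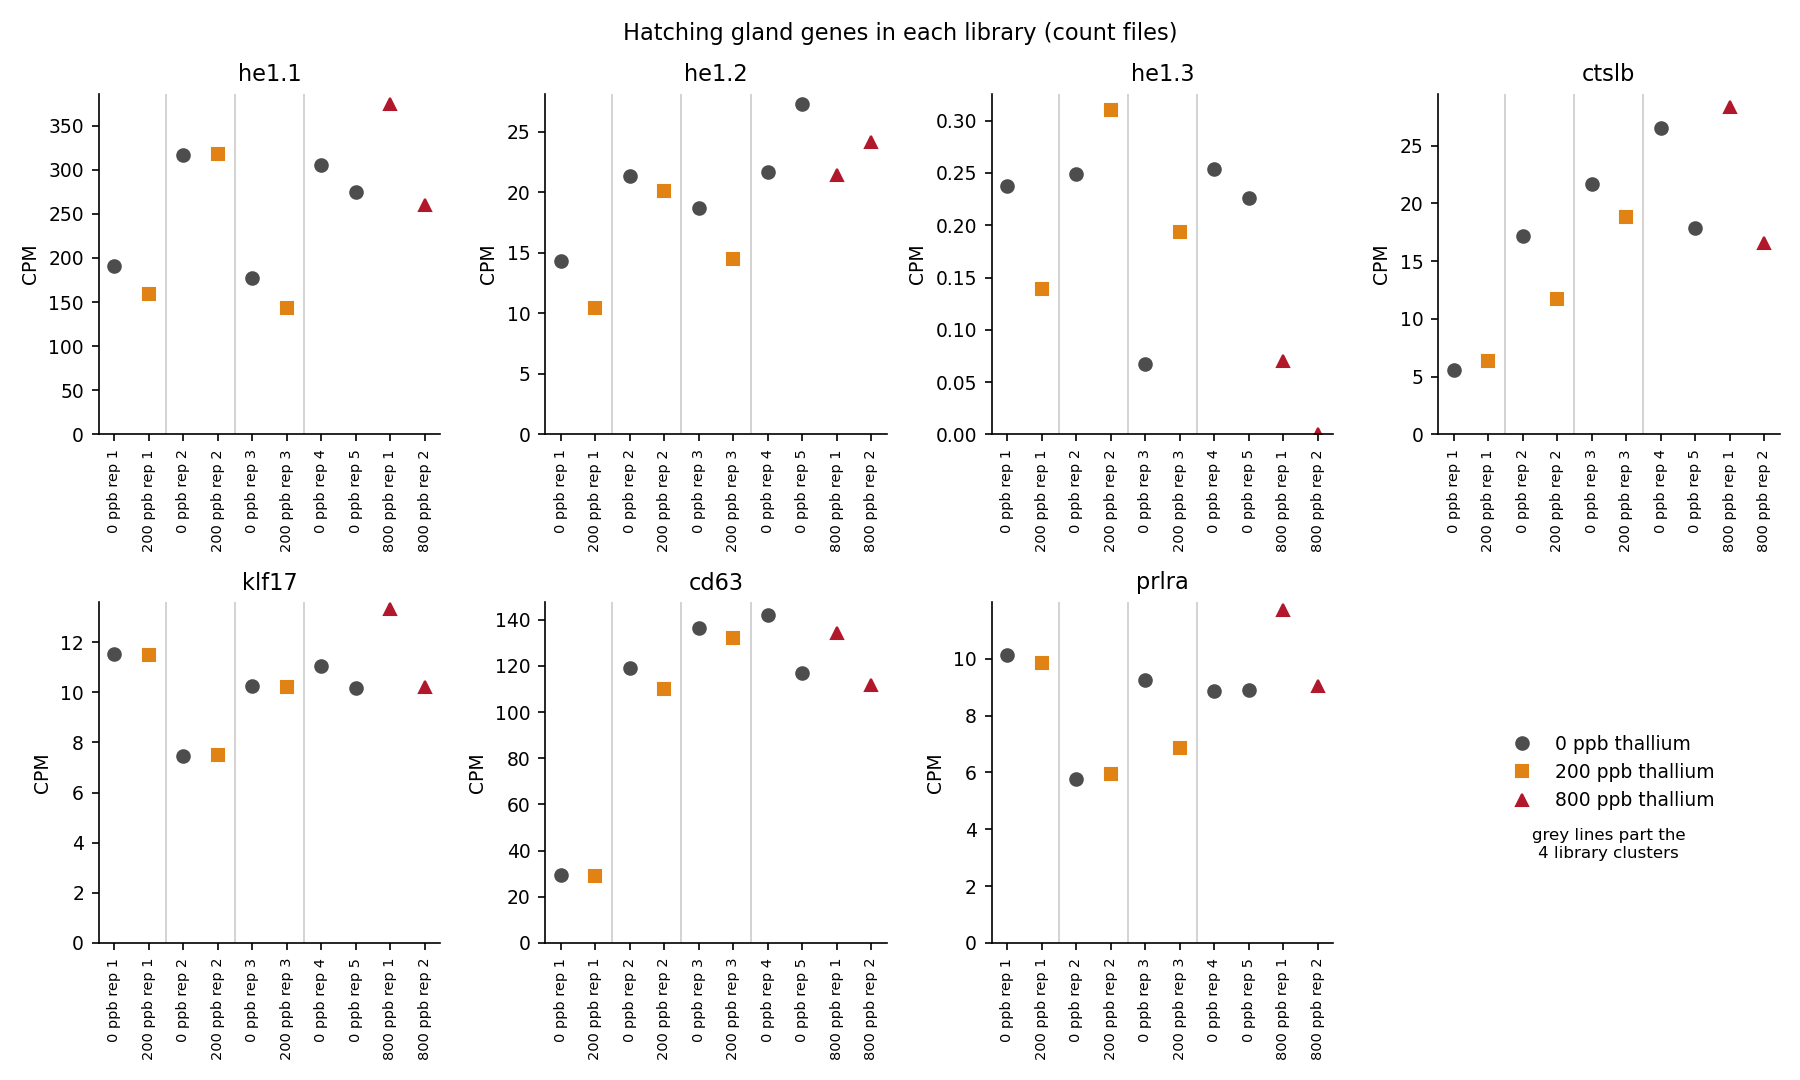
CPM of the 7 hatching gland genes in each of the 10 libraries, from the count files, with 1 panel per gene and vertical axes that start at 0. Symbols give the dose and grey lines part the 4 library clusters: at 0 and 200 ppb he1.1 was near 318 CPM in both replicate 2 libraries and at most 191 CPM in those of replicates 1 and 3, and cd63 was under 30 CPM in both hospital core libraries and at least 109.9 CPM in the other 8.

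The first group of genes encodes the hatching enzymes proper. He1.1 (ENSDARG00000023656) is the zebrafish hatching enzyme that swells and softens the inner layer of the egg envelope. It had 191, 317, 177, 305 and 275 CPM in replicates 1 to 5 at 0 ppb. At 200 ppb it had 159, 318 and 143 CPM in replicates 1 to 3, and at 800 ppb 375 and 259.9 CPM. Replicate 2 was the high library and replicates 1 and 3 the low ones at both 0 and 200 ppb, and all 3 dose groups overlapped. Group means were 253 ± 65.1 CPM (SD, n = 5), 207 ± 96.8 CPM (n = 3) and 317 ± 81.3 CPM (n = 2).

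These levels rest on 2218 to 10460 reads per library, so counting error was small beside the spread between libraries. Among the 5 unexposed libraries alone the highest he1.1 level was 1.79 times the lowest, and among the provider's 8 libraries it was 2.62 times the lowest. The fitted difference at 200 ppb was −0.23 in log2 (SE 0.26), or 0.851-fold with a 95% interval from 0.574 to 1.26. At 800 ppb it was 0.24 (SE 0.29), or 1.18-fold with an interval from 0.752 to 1.85 and an adjusted p of 0.933 in edgeR's quasi-likelihood test. Both intervals include no change, and a change of he1.1 of any size within them was compatible with this fit. The fit with the replicate number as a block, given below, had a smaller SE at 200 ppb.

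He1.2 (ENSDARG00000019122) encodes a near copy of he1.1 and, in the RefSeq order of genes, lies next to it on the same chromosome, followed by he1.3. Reads from the shared coding sequence can be assigned to either copy, which makes each copy's own count uncertain. He1.2 had 14.3, 21.3, 18.7, 21.7 and 27.3 CPM at 0 ppb. At 200 ppb it had 10.5, 20.1 and 14.5 CPM, and at 800 ppb 21.4 and 24.1 CPM. All 3 libraries at 200 ppb were below their same-numbered library at 0 ppb, both libraries at 800 ppb lay within the 0 ppb range, and the 200 and 0 ppb ranges overlapped.

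The he1.2 mean was 20.7 ± 4.74 CPM (n = 5) at 0 ppb, 15.04 ± 4.84 CPM (n = 3) at 200 ppb and 22.8 ± 1.90 CPM (n = 2) at 800 ppb. The fitted log2 difference at 200 ppb was −0.39 (SE 0.16, 95% interval from −0.74 to −0.04), with an unadjusted p of 0.0338 and an adjusted p of 0.99996 in edgeR's quasi-likelihood test over all genes. The fitted difference at 800 ppb was 0.02 (SE 0.18, adjusted p = 0.986 in the same test). In the second count set that the authors deposited, the he1.2 difference at 200 ppb had the opposite sign, as described with that set.

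He1.3 (ENSDARG00000022670), the remaining copy, was near the limit of detection. It had 13, 4, 1, 3 and 3 reads in replicates 1 to 5 at 0 ppb, 5, 5 and 3 reads at 200 ppb, and 1 and 0 reads at 800 ppb. The highest count came from the deepest library, and in CPM all libraries lay between 0 and 0.310. Both 800 ppb libraries were below the 2 unexposed libraries of their own cluster, which had 0.253 and 0.226 CPM, but the 0 reads of 800 ppb replicate 2 allow up to 0.253 CPM at 3 counts in that library, so no difference was detectable at this depth.

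He1.1 and he1.2 were also added together, since a sum is not affected by reads moving between the copies. The sum was 205, 339, 196, 327 and 303 CPM at 0 ppb, 169, 338 and 158 CPM at 200 ppb and 396 and 284 CPM at 800 ppb. It followed he1.1, and the groups overlapped. The fitted log2 difference of the sum was −0.24 (SE 0.25) at 200 ppb and 0.22 (SE 0.28) at 800 ppb. He1.2 made up 5.41% to 9.54% of the reads of the pair in the 10 libraries.

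Ctslb (ENSDARG00000074306), a cathepsin L-like cysteine protease long used as a marker of the gland and its polster precursors, had 5.61, 17.2, 21.7, 26.5 and 17.9 CPM at 0 ppb. It had 6.39, 11.7 and 18.8 CPM at 200 ppb, and 28.4 and 16.5 CPM at 800 ppb. Both hospital core libraries, replicate 1 of each group, were the lowest of their group, and the dose groups overlapped. The fitted log2 difference was −0.27 (SE 0.25) at 200 ppb and 0.17 (SE 0.27, adjusted p = 0.948 in edgeR's quasi-likelihood test) at 800 ppb.

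Ctslb lies in a run of related genes, among them ctslb.4 and several with clone-based names, and its own reads may be split with them. Ctslb.4 had 465, 626, 127, 144 and 479 reads at 0 ppb, 408, 599 and 51 reads at 200 ppb, and 746 and 291 reads at 800 ppb. Replicates 2 and 3 differed in the same direction at both doses for ctslb.4, high in replicate 2 and low in replicate 3, whereas ctslb itself was higher in replicate 3 than in replicate 2 at both doses.

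The transcription factor of the gland, klf17 (ENSDARG00000038792), varied least among the unexposed libraries in the count files, where its SD was 15.6% of its mean. On the second deposited count set its SD was 24.2% of its mean, against 16.2% for ctslb and 31.1% for cd63. In the count files klf17 had 11.5, 7.46, 10.3, 11.1 and 10.19 CPM at 0 ppb. It had 11.5, 7.51 and 10.198 CPM at 200 ppb, and 13.3 and 10.204 CPM at 800 ppb. Each library at 200 ppb was within 0.01 log2 units of its same-numbered partner at 0 ppb, and 1 library at 800 ppb was above all others while the second lay within the 0 ppb range. The fitted log2 difference was −0.10 (SE 0.18) at 200 ppb and 0.29 (SE 0.21, adjusted p = 0.930 in edgeR's quasi-likelihood test) at 800 ppb.

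Cd63 (ENSDARG00000025147), whose protein marks lysosome-related and secretory vesicles in many cell types besides the gland, had 29.6, 119, 136, 142 and 117 CPM at 0 ppb. It had 29.2, 109.9 and 132 CPM at 200 ppb, and 134 and 112 CPM at 800 ppb. The 2 hospital core libraries stood far below the other 8, whose highest level was 1.29 times their lowest. With the site in the fit, the log2 difference was −0.07 (SE 0.12) at 200 ppb and −0.06 (SE 0.14, adjusted p = 0.963 in edgeR's quasi-likelihood test) at 800 ppb, the narrowest estimates of the 6 genes.

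Prlra (ENSDARG00000016570), a receptor for the pituitary hormone prolactin that is also found in ion-transporting tissues, had 10.1, 5.78, 9.24, 8.87 and 8.91 CPM at 0 ppb. It had 9.83, 5.96 and 6.84 CPM at 200 ppb, and 11.7 and 9.02 CPM at 800 ppb. Both 800 ppb libraries were above the 2 unexposed libraries of their own cluster, but 800 ppb replicate 2 was below replicates 1 and 3 of 0 ppb. The fitted log2 difference was −0.26 (SE 0.20) at 200 ppb and 0.37 (SE 0.22, adjusted p = 0.930 in edgeR's quasi-likelihood test) at 800 ppb.

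**Figure D2:**
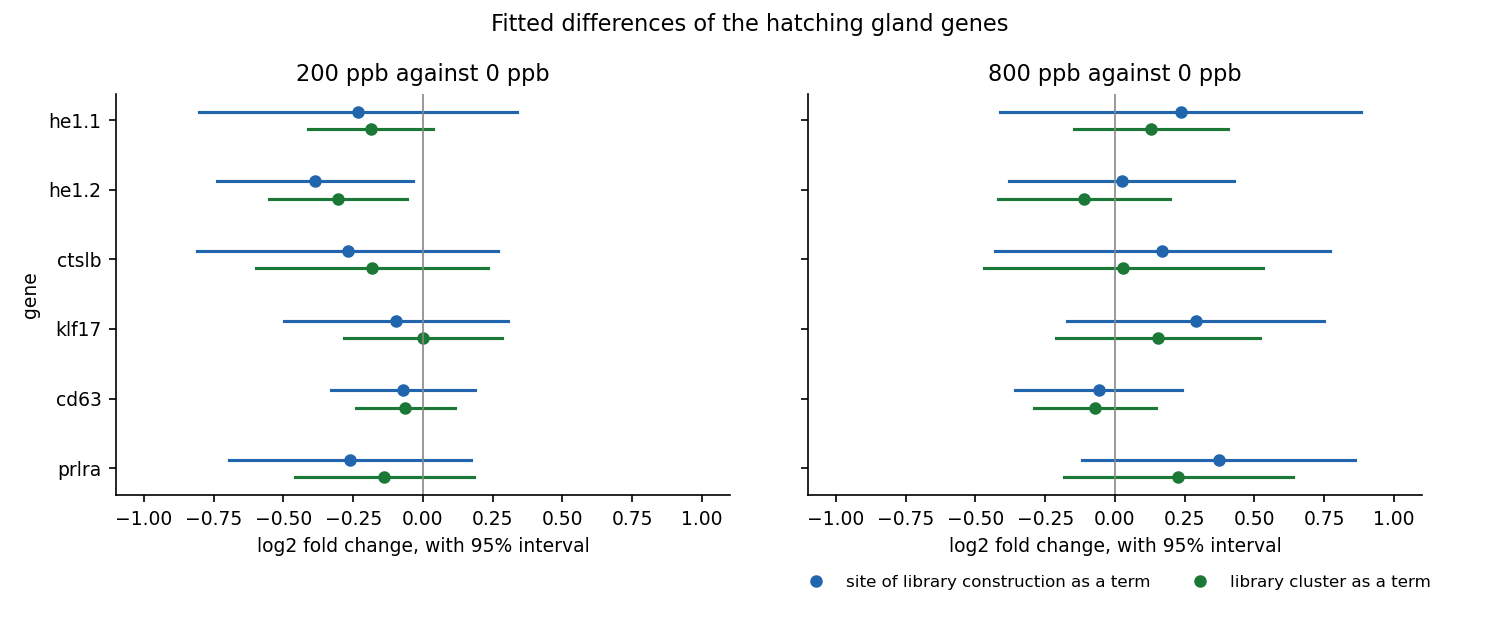
Fitted log2 fold changes of the 6 tested genes (points) with 95% intervals (bars), at 200 ppb on the left and 800 ppb on the right, with the site of library construction as a term (blue) or the library cluster as a term (green). With the site term 5 of 6 intervals include 0 at 200 ppb and all 6 do so at 800 ppb; the exception is he1.2 at 200 ppb, from −0.74 to −0.04.

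Same-numbered libraries of 0 and 200 ppb shared a cluster, which for replicate 1 was set from the site label. They also deviated together across all genes, which the site of replicate 1 can in part produce. The 3 pairs were compared within themselves, in the count files. He1.1 differed by −0.27 log2 units in pair 1, by 0.0044 in pair 2 and by −0.31 in pair 3. He1.2 differed by −0.45, −0.08 and −0.36. He1.2 and cd63 were lower at 200 ppb in 3 of 3 pairs, and he1.1, ctslb, klf17 and prlra in 2 of 3.

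Over the 6 genes and 3 pairs in the count files, 14 of 18 differences were below 0, and these genes share their libraries. Pair 3 held 6 of 6 below 0, pair 1 held 5 of 6 and pair 2 held 3 of 6. The share of all genes below 0 was not counted. Some of the 14 were smaller than their counting error, as klf17 in pair 1 at −0.0014 (SE 0.091). On the second deposited count set he1.1, cd63 and prlra were lower in 3 of 3 pairs, and he1.2, ctslb and klf17 in 2 of 3. With the replicate number as a block, he1.1 had a log2 difference of −0.19 (SE 0.06, unadjusted p = 0.00285 in edgeR's quasi-likelihood test) and he1.2 of −0.31 (SE 0.10, unadjusted p = 0.00351). Both had an adjusted p of 0.99986 over all genes in that test, so neither was called. At an unadjusted p under 0.05 that fit held 2 of the 6 genes beside 3.27% of all genes.

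**Figure D3:**
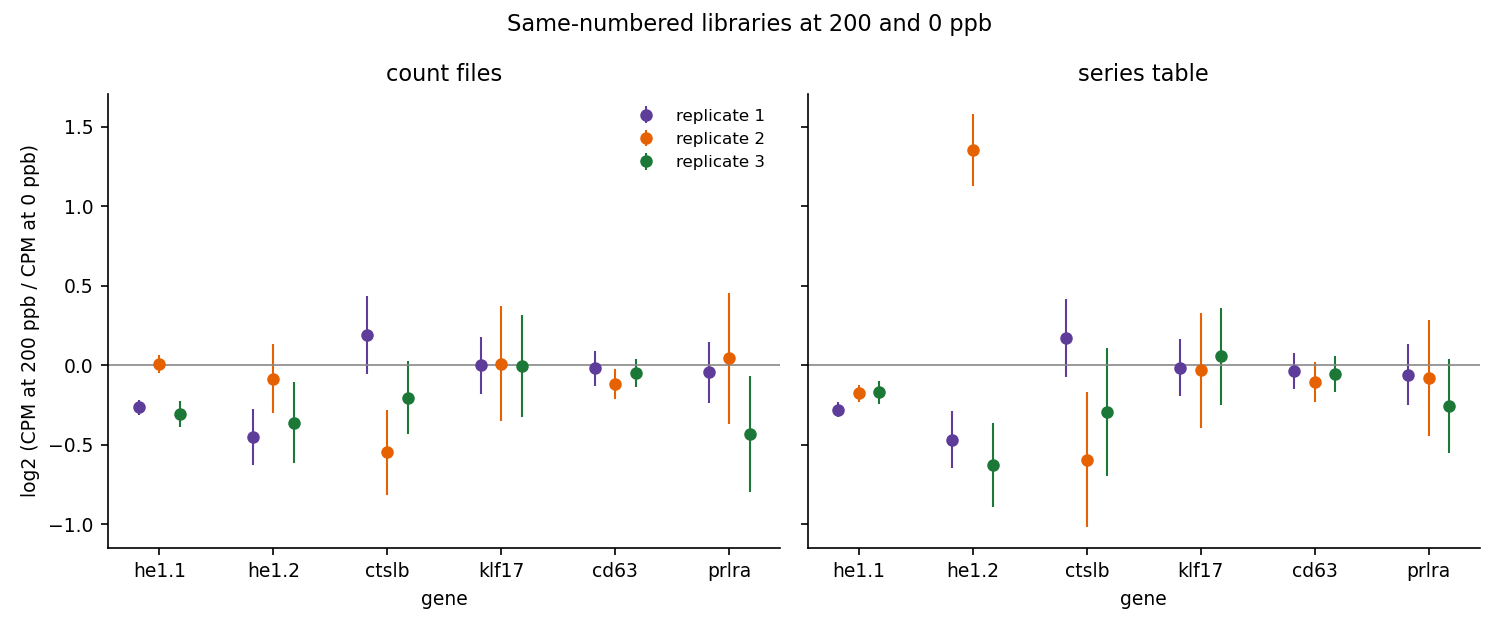
Log2 ratio of CPM at 200 ppb to CPM at 0 ppb in each same-numbered pair, from the count files (left) and from the reads of the series table (right); bars are 95% intervals of counting error alone. He1.2 in pair 2 lies at −0.08 in the count files and at 1.35 in the series table. CPM on the right was taken over plain library totals, without TMM.

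For 800 ppb the nearest controls are replicates 4 and 5 of 0 ppb, which share its cluster. Within that cluster he1.1 had 305 and 275 CPM unexposed against 375 and 259.9 CPM exposed, so the exposed libraries lay on either side of the controls. Ctslb, klf17, cd63 and he1.2 also had exposed and unexposed ranges that overlapped. Prlra did not, at 8.87 and 8.91 CPM unexposed against 11.7 and 9.02 CPM exposed, which makes 1 of the 6 tested genes beside 32.8% of all genes tested. Fitted within the cluster, the log2 differences were 0.13 (SE 0.14) for he1.1, −0.11 (SE 0.15) for he1.2, 0.03 (SE 0.24) for ctslb, 0.15 (SE 0.20) for klf17, −0.07 (SE 0.12) for cd63 and 0.22 (SE 0.21) for prlra, and edgeR's quasi-likelihood test called 0 of them beside 0.124% of all genes. With the library cluster as a term over all 10 libraries it likewise called 0 of the 6, beside 0.311% of all genes.

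Both libraries of the 800 ppb group also differed from each other. Replicate 1 was above replicate 2 in 5 of 6 genes, all but he1.2. Of the 2 unexposed libraries in the cluster, replicate 4 was above replicate 5 in 4 of 6. Across the 4 libraries of the cluster the highest level was 1.44 times the lowest for he1.1, 1.27 for he1.2, 1.72 for ctslb, 1.31 for klf17, 1.27 for cd63 and 1.32 for prlra.

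In the count files the 6 genes did not vary as 1 block across the libraries of both sites. Likeness was measured as the root mean square difference between log2 levels centred on each gene's own mean, over the 10 libraries, where 0 means the same profile. Klf17 and prlra were the closest pair at 0.116, both lowest in replicate 2 of 0 and 200 ppb. He1.1 and he1.2 were 0.304 apart, ctslb and cd63 were 0.303 apart, and cd63 and prlra were the farthest at 0.973. Genes that vary little lie close on this measure. The root mean square of each gene about its own mean was 0.236 for klf17, 0.300 for prlra and 0.382 for he1.2. It was 0.460 for he1.1, 0.722 for ctslb and 0.835 for cd63. The site difference enters these values: cd63 had 29.2 and 29.6 CPM in the hospital core's libraries and 109.9 to 142 CPM in the provider's 8. Ctslb had 5.61 and 6.39 CPM against 11.7 to 28.4 CPM. The distances were not computed without the hospital core, nor on the second deposited count set. He1.1 and he1.2 were higher in replicate 2 than in replicate 3 at both 0 and 200 ppb, and the other 4 genes were lower in replicate 2.

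Among 13951 genes with a mean of at least 5 CPM, the profile most like he1.1 was that of slc11a2, an iron transporter, at 0.125, and others near it were si:ch211-212c13.10 at 0.161, IPO8 at 0.163 and zgc:113054 at 0.164. For he1.2 the nearest were POP7 at 0.141, VAMP4 at 0.143, ube2ib and SLC38A7 at 0.145, and znf668 at 0.147. For cd63, near profiles were NDUFS3 at 0.122, CKMT2 at 0.127 and the crystallin gene crygm2d2 at 0.136. All of these points share library, depth and site, and none of the genes named here belongs to the hatching gland names.

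The site of library construction went with large differences for part of the genes. In the count files the provider's 8 libraries had a mean cd63 level 4.26 times that of the hospital core's 2, 125 against 29.4 CPM. For ctslb the ratio was 3.31, for he1.2 1.71 and for he1.1 1.55, and klf17 and prlra were lower at the provider, at 0.871 and 0.830 times. The series table holds other reads for the provider's libraries, and its CPM was taken over plain library totals, without TMM. The ratio of means there was 2.05 for cd63, 0.900 for ctslb and 0.992 for he1.2. Both the reads and the scaling differ from the count files, so these ratios are not on the same scale. In 0 ppb replicate 1, with the same reads in both sets, cd63 had 29.6 CPM in the count files and 33.6 CPM in the series table. What else differed between the sites cannot be told apart from the site itself.

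The 2 deposited count sets of the provider's libraries differed most, among the 6 genes, for ctslb, cd63 and he1.2. Over 15109 genes, the median gene had 119% as many reads in the series table as in the count files. Ctslb had 37.2%, and only 0.185% of genes had a lower share. Cd63 had 64.8%, with 0.755% of genes lower, and he1.2 had 81.7%, with 1.65% lower. He1.1 at 115%, klf17 at 109% and prlra at 139% were nearer the median.

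For he1.2 the share was uneven between libraries, from 36.7% to 170%. In 200 ppb replicate 2 it had 324 reads in the count file and 552 in the series table, whereas in 0 ppb replicate 2 it had 343 and 215 reads, and in 800 ppb replicate 2 it had 286 and 105 reads. In series table CPM, over plain totals without TMM, he1.2 had 16.3, 11.6, 15.8, 11.8 and 12.04 at 0 ppb. It had 11.8, 29.6 and 10.24 at 200 ppb, and 12.8 and 7.29 at 800 ppb. Replicate 2 of 200 ppb was then far above the other 9 libraries.

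The fitted log2 difference of he1.2 on those reads was 0.34 (SE 0.34) at 200 ppb and −0.47 (SE 0.42) at 800 ppb, against −0.39 and 0.02 on the count files. The sum of he1.1 and he1.2 was steadier: the provider's libraries had 97.5% to 123% of its reads in the series table, and its fitted log2 difference there was −0.24 (SE 0.26) at 200 ppb and 0.11 (SE 0.29) at 800 ppb. The fitted difference of he1.2 at 200 ppb was therefore below 0 in 1 of the 2 count sets and above 0 in the other. Within pairs of the series table he1.2 was lower at 200 ppb in pairs 1 and 3, by −0.47 and −0.63 log2 units. It was higher in pair 2, by 1.35. Which count set assigns reads to the right copy was not tested.

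**Figure D4:**
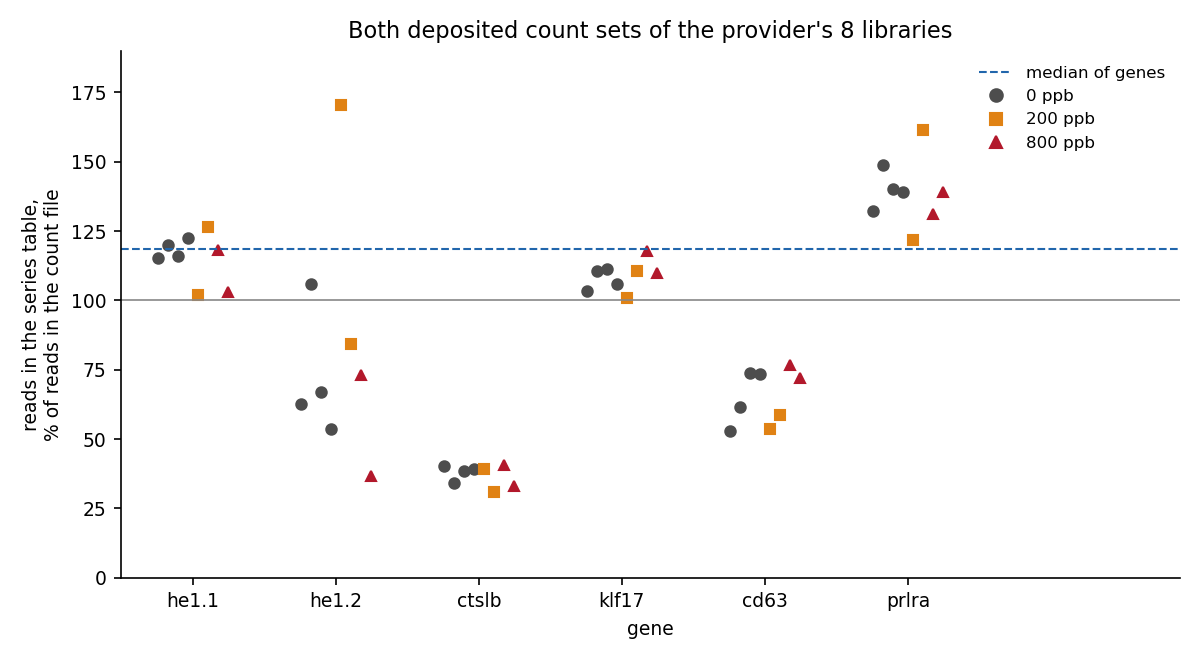
Reads in the series table as a percentage of reads in the count file, for 6 hatching gland genes in each of the provider's 8 libraries (points, with the dose as symbol). The dashed line is the median over genes, 119%: ctslb lies far below it in all 8 libraries, and he1.2 spreads from 36.7% to 170%.

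Other genes of the same pathways were then examined, in lists of genes tied to each role. For these and the lists that follow, 49.1% of all genes tested lay above 0 at 200 ppb and 48.0% at 800 ppb, with the site term. Genes of a list share their libraries. Of 13 tested genes for transcription factors and signals that specify the prechordal plate and gland, 0 were called at either dose by edgeR's quasi-likelihood test, with 2 above 0 at 200 ppb (median log2 difference −0.12) and 7 above 0 at 800 ppb (median 0.11). With the library cluster as a term 4 of the 13 lay above 0 at 800 ppb and the median was −0.03, the opposite sign. The Nodal co-receptor gene tdgf1 had 1.33 ± 0.224 CPM (n = 5) unexposed and 2.29 ± 0.134 CPM (n = 2) at 800 ppb, a log2 difference of 0.77 (SE 0.32, adjusted p = 0.930). The notochord factor noto, at −1.59 (SE 0.93), and klf4, at −0.68 (SE 0.40), had group means under 3 CPM at each dose. Of other astacin proteases, 9 had a row and 2 passed the filter on low counts, npsn at 0.04 (SE 0.20) and tll1 at −0.03 (SE 0.32) at 800 ppb.

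Among 12 tested cysteine cathepsins 0 were called with the site term, and 5 lay above 0 at 800 ppb. Ctsla, another cathepsin L gene, had 333, 582, 712, 440 and 362 CPM at 0 ppb, 324, 643 and 816 CPM at 200 ppb, and 1154 and 979 CPM at 800 ppb. Both 800 ppb libraries were above the other 8, and the share of all genes with such a gap was not counted. With the site term the log2 difference of ctsla was 0.98 (SE 0.23, adjusted p = 0.671 in edgeR's quasi-likelihood test). With the library cluster as a term it was 1.41 (SE 0.10) and called, at an adjusted p of 6.74e-06 in the same test. That made 1 of the 12 cathepsins called with the cluster term, beside 0.311% of all genes. Ctslb had 0.17 (SE 0.27) and 0.03 (SE 0.23) in the same 2 fits.

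Of 14 tested genes of the prolactin and growth hormone axis, 0 were called at either dose. At 200 ppb 11 lay above 0, with a median of 0.06, and at 800 ppb 5 did, with a median of −0.24. With the library cluster as a term the 800 ppb count was 8 and the median 0.07, the opposite sign. Prl, the gene for prolactin itself, had 1.68, 2.30, 3.98, 3.12 and 2.72 CPM at 0 ppb, 2.19, 3.23 and 6.20 CPM at 200 ppb, and 6.30 and 4.47 CPM at 800 ppb. It rested on 36 to 96 reads per library and was higher at 200 ppb than in the same-numbered unexposed library in 3 of 3 pairs. The groups overlapped at 200 ppb but not at 800 ppb, and the share of all genes without overlap in that comparison was not counted. Its log2 difference at 800 ppb was 0.81 (SE 0.32, adjusted p = 0.930 in edgeR's quasi-likelihood test). The pituitary somatolactin gene smtlb, at −1.73 (SE 0.37, adjusted p = 0.393), and the growth hormone receptor gene ghrb, at 0.65 (SE 0.18, adjusted p = 0.930), also missed the threshold.

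Of 7 tested tetraspanin genes and 26 tested genes of the secretory pathway, 0 were called at either dose. At 800 ppb 4 of the 7 and 7 of the 26 lay above 0, with medians of 0.04 and −0.09. With the library cluster as a term 3 of the 7 and 4 of the 26 did, with medians of −0.01 and −0.10. Tspan4a at −0.33 (SE 0.19) and tram1, part of the translocation channel into the endoplasmic reticulum, at −0.27 (SE 0.11) had the smallest p of the 2 lists.

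Genes of the pancreas, the gut and the photoreceptors were chosen as ones that come on around or after hatching, and their onset was not tested here. A list of 24 such names, of which 16 matched a gene, was read beside the gland genes. None of its 12 tested genes was called at either dose, with 3 above 0 at 200 ppb and 7 at 800 ppb, or 4 and 9 with the library cluster as a term. Its summed level was 124 to 615 CPM at 0 ppb, 135 to 578 CPM at 200 ppb and 315 to 351 CPM at 800 ppb, and was lowest in the 2 hospital core libraries. The genes apoa4b.1 and fabp2 made up most of that sum in each library. They had 73.5 and 35.5 CPM in 0 ppb replicate 1, where the sum was lowest, and 451 and 97.6 CPM in 0 ppb replicate 3, where it was highest. The sum therefore says little about the pancreas and photoreceptor genes. Apoa4b.1, an apolipoprotein gene, had the smallest p, at −0.64 (SE 0.20, adjusted p = 0.930 in edgeR's quasi-likelihood test).

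Markers of other cell types of the embryo, such as the skin and yolk layer next to the gland, were measured too. Of the tested markers 0 of 14 for periderm and skin, 0 of 9 for myeloid cells, 0 of 9 for ionocytes, 0 of 8 for the yolk layer and 0 of 9 for notochord were called at either dose. At 800 ppb agr1, a periderm and skin marker, stood at −0.65 (SE 0.20). Of the 14 periderm and skin markers 1 lay above 0 at that dose, beside 48.0% of all genes, and the median of the 14 was −0.23. With the library cluster as a term 2 of the 14 did, with a median of −0.10. Of the notochord markers 0 of 9 lay above 0 at 800 ppb with the site term, with a median of −0.09. Of the myeloid markers 3 of 9 did, with a median of −0.23. The summed periderm and skin level was 18442 to 31284 CPM at 0 ppb, 18817 to 30822 CPM at 200 ppb and 18164 to 23916 CPM at 800 ppb. Of the ionocyte markers 6 of 9 lay above 0 at 800 ppb, where prlra was also above 0, with slc12a10.2 at 0.78 (SE 0.24) and foxi3b at 0.43 (SE 0.17). The ionocyte marker ca2, also among those with the smallest p, was not higher at 800 ppb. It had 35.8, 77.6, 48.9, 37.7 and 39.6 CPM at 0 ppb and 32.9 and 39.4 CPM at 800 ppb. The part of ionocytes in the prlra value was not tested.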

How the data were processed

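RNA sequencing of 10 libraries of whole embryos was used, with groups and replicate numbers from the sample titles and sites from the labels' protocols. The submitters' processing notes list FastQC, cutadapt, STAR and edgeR, with no version or role, and GRCz11 as the build. Which counter, annotation release and strand setting were used is not given in the sources used here, so overlapping genes on opposite strands are not separable. Read counts per Ensembl gene, in whole numbers and as deposited by the authors, were the values tested. In both hospital core files 463 features more (0.339% and 0.342% of counts) were left out.

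A table of the whole series, also deposited by the authors, holds log2 CPM values. Reversing the logarithm, with 2 as the prior count, left whole reads, within 0.05 reads, for 100% of the values under 5000 reads, where this was checked. For the hospital core these are the reads of the count files; for the provider they are another count set, whose totals were 1.12 to 1.19 times as large. They were tested as an alternative.

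The 10 libraries entered a single edgeR 4.0.16 fit (R 4.3.3) with terms for site and dose, TMM scaling and filterByExpr by dose, tested by the two-sided quasi-likelihood F-test. Adjusted p-values are Benjamini-Hochberg over the 20867 genes tested of 32057, with 0.05 as the threshold. DESeq2 1.42.0, limma-voom (limma 3.58.1), other scaling, filters, terms and leaving out each library were alternatives. The scripts were also run on simulated data without site or cluster effects and with less spread than the site-term fit estimated. That run therefore does not show how the fits perform on these libraries. Library clusters came from the log ratio of both count sets over 13232 genes, correlated between the provider's libraries at 0.903 to 0.952 within and 0.748 to 0.818 between 3 clusters. The number of 3 was set beforehand, and the hospital core was made the fourth from its site label. As the provider's clusters were read from the data, they are not the study's batches.

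Deviations of same-numbered 0 and 200 ppb libraries from their group means correlated at 0.893, 0.511 and 0.685. Replicate 1 came from the hospital core at both doses, which alone can raise these values, and differently numbered libraries were not compared. The correlations therefore do not settle the pairing. The provider's same-numbered libraries were treated as pairs because they also shared a cluster. Replicate 1 was treated as a pair by its number and site, since its cluster was set from the site label and adds no evidence of pairing. The deviations of same-numbered 0 and 800 ppb libraries correlated at −0.141 and 0.0385. With 2 libraries at 800 ppb, both from the provider, these values cannot show a pairing either, and the libraries lay in different clusters.

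Symbols were available for 28988 genes. Of 202 entries in 13 lists, 150 matched by symbol, 11 did so without their paralog letter and 41 had no match. The hatching gland genes and all lists were chosen with earlier results of these data known, so none is independent evidence. Named are all hatching gland genes, up to 3 genes per other list with the smallest p at 800 ppb, and the 5 profiles nearest to he1.1, he1.2 and cd63, on log2(CPM + 0.5), of which 3 are not reported here. Python 3.11.15, pandas 2.3.3, scipy 1.17.1 and matplotlib 3.10.9 prepared tables and plots.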

Additional observations from a re-analysis of the deposited data

Results flagged for a closer look

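Cd63 was flagged because 1 unexposed library stood apart: replicate 1, from the hospital core, had 29.6 CPM, and the gap to the next library was 0.777 of the group's range, where 0.71 is the limit for 5 libraries. The hospital core's library at 200 ppb was as low, at 29.2 CPM. He1.3 was flagged because replicate 3 of 0 ppb had 0.0674 CPM, a gap of 0.855 of the range, but that level is 1 read. Prlra in replicate 2 of 0 ppb, at 5.78 CPM and a gap of 0.708, fell just under the limit. Chance flags about 1 in 20 groups of this size, and 7 genes were examined.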

How the results depend on the processing

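Of 248 values recomputed under another setting for the 6 tested genes, 233 kept their sign and their side of the threshold, 15 turned their sign, and 0 single genes crossed the threshold with the sign kept. The number of hatching gland genes called stayed 0 at 200 ppb in each setting. At 800 ppb it was 1 when a replicate block joined the site term across the 10 libraries, where he1.1 stood at −0.39 (SE 0.09, adjusted p = 0.000656 in edgeR's quasi-likelihood test), against 0.24 without the block. That fit called 6590 genes in all, and same-numbered libraries of 0 and 800 ppb lay in different clusters. The replicate block changed no other call of these genes.

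On the series table's reads he1.2 turned to 0.34 at 200 ppb and −0.47 at 800 ppb, and cd63 to 0.12 at 800 ppb. He1.2 at 800 ppb was −0.11 with the library cluster as a term and −0.11 within its own cluster, and cd63 at 800 ppb was 0.18 with no site term. The cause of these turns was not tested.

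Leaving out 1 library at a time turned the sign of 7 differences, none of them called in those fits. At 200 ppb he1.1 ran from −0.65 to 0.052, klf17 from −0.22 to 0.040 and cd63 from −0.15 to 0.014. At 800 ppb he1.1 ran from −0.053 to 0.48, he1.2 from −0.062 to 0.12, ctslb from −0.28 to 0.50 and cd63 from −0.20 to 0.066. Over all genes the calls at 800 ppb were 9 with the site term, 45 in DESeq2, 2 in limma-voom, 0 with no site term, 1 with the provider only, 65 with the cluster term, 24 within the cluster and 15 on the series table's reads. Without 1 library that count was 0 (0 ppb replicate 4 or 5, 800 ppb replicate 1), 1 (0 ppb replicate 1 or 3, any 200 ppb replicate), 7 (800 ppb replicate 2) or 9 (0 ppb replicate 2). An 800 ppb group of 2 libraries limits the intervals, and he1.3 is limited by its read count.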
